A study of Mus musculus with 15 samples.

Results

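Coverage was examined at 10 germline genes for 5-hydroxymethylcytosine (5hmC) and unmodified CG sites (uCGs) in mouse embryonic stem cells (mESCs): Dazl, Ddx4, Sycp1, Sycp3, Hormad1, Mael, Tdrd1, Stk31, Tex101 and Stra8. They were 10 of the 21755 protein-coding genes of GENCODE release 21 on chromosomes 1 to 19 and X. They were chosen by name, with no measured value in the rule, although earlier results of these data were known. Every CG inside a gene span or within 2 kb upstream of it was taken, 3493 CGs in all. Of these, 582 lay in promoters, which ran from 1 kb upstream to 0.5 kb downstream of the transcription start site (TSS). Neither 5-methylcytosine (5mC) nor RNA was measured, so whether these genes were methylated or silent in these cells was not tested here.

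All DNA came from the E14TG2a mESC line, grown on gelatin in serum with LIF. hmTOP-seq labels 5hmC with an azide-glucose by β-glucosyltransferase (BGT), tethers an oligonucleotide to the label, and starts a sequencing read at or next to the labeled CG. It was run in pairs of technical replicates on 500, 50 and 5 ng of DNA, with 2 further libraries per input, made without BGT, as controls. uTOP-seq, which reads uCGs, was run at 300 ng with 3 replicates, so that 15 libraries of 1 untreated cell line were compared and p-values measured only the spread between technical replicates.

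Germline genes act in the making of eggs and sperm and are switched off in somatic cells. In mouse embryos many of them carry CG-rich promoters that gain 5mC around implantation, through DNA methyltransferases and a noncanonical Polycomb complex that binds DNA through partners such as E2F6 and MGA with MAX. 5hmC is made from 5mC by TET enzymes, so a CG read in hmTOP-seq had been methylated before it was oxidized, whereas a CG read in uTOP-seq carried neither mark.

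The stretches from 210 to 11 bases upstream of the TSS are shown for 4 of the genes as examples. They show base by base which CGs next to the TSS were read. Most of the CGs and reads of each promoter lay outside these stretches. Each is 200 bases of GRCm38 written 5′ to 3′ on the strand of the gene, in lower case, and CGs with a read in both 500-ng libraries are in capitals. The Dazl stretch is chr17:50293647-50293846 on the minus strand, the Sycp1 stretch is chr3:102936111-102936310 on the minus strand, the Tdrd1 stretch is chr19:56825999-56826198 on the plus strand, and the Hormad1 stretch is chr3:95559467-95559666 on the plus strand.
Dazl: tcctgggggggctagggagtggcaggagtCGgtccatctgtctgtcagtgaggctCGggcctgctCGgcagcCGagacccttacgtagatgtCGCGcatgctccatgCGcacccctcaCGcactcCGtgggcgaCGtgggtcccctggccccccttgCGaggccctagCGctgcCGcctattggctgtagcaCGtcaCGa
Sycp1: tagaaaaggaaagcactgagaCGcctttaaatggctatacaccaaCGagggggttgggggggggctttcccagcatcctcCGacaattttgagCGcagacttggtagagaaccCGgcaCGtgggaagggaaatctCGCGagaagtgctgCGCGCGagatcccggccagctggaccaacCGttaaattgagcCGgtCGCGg
Tdrd1: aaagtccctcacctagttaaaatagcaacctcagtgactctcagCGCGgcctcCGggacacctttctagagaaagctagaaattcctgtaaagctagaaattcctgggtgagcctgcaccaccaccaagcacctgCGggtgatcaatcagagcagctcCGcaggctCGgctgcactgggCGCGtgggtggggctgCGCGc
Hormad1: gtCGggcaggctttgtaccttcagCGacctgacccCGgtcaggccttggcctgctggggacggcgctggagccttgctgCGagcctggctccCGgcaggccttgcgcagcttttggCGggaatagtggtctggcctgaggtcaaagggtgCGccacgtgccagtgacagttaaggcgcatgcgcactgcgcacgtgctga
In Tdrd1 all 10 CGs of the stretch were read in both libraries, in Dazl 15 of 17 and in Sycp1 15 of 16. In Hormad1 7 of 15 were read in both, and several of the CGs left in lower case lay at the end next to the TSS. In the stretches not shown the counts were 7 of 24 in Stk31, 14 of 31 in Ddx4 and 9 of 16 in Mael. They were 9 of 11 in Tex101, 9 of 9 in Sycp3 and 5 of 5 in Stra8.

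Total reads counted at CGs per library were 31918445 to 32502791 at 500 ng and 22052535 to 23027170 at 50 ng. They were 14884939 to 15277636 at 5 ng and 20120568 to 28412885 in uTOP-seq. The 6 control libraries held 3409 to 10072 such reads. In the controls, 1 read lay in a promoter of the set, at Tdrd1 in the second 500-ng control, and the 10 loci held 1 and 3 reads in the 500-ng controls and none in the other 4, against 7955 and 7686 reads in the 500-ng libraries. The promoters took 0.0102% of the first 500-ng library, and the 0 of 10072 reads in its control allow a share of up to 0.0298%, so shares could not be told apart at this depth and the difference from the controls was that of the library totals. Such limits cover counting error only. The cell type could not be checked on RNA.

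5hmC coverage was high at every one of the 10 promoters. Relative coverage, the reads per CG divided by the mean reads per CG of the library, was 2.19 to 5.09 at 500 ng with a median of 3.88, whereas the median over all promoters was 0.266. At 50 ng the median of the set was 3.44 and at 5 ng 3.05, and the means of all 10 promoters lay above 1 at each input. In single 5-ng libraries 2 lay below 1, Tex101 at 0.189 and Ddx4 at 0.987, both in the second library. uCG coverage of the same promoters was 1.01 to 5.27 with a median of 1.88, against 1.97 over all promoters.

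**Figure D1:**
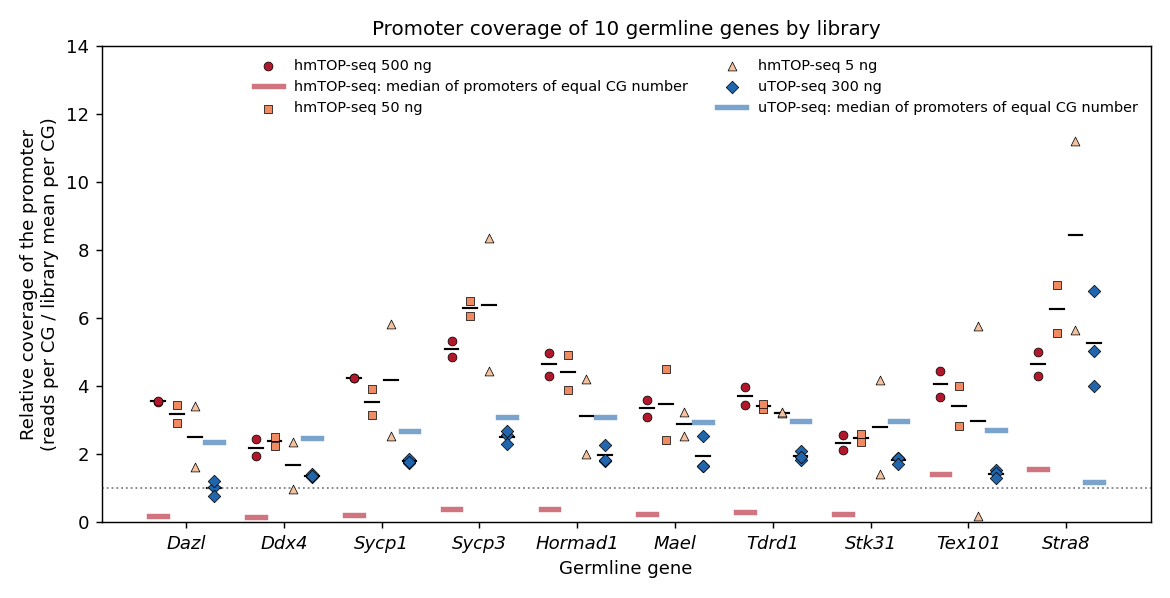
Relative coverage of the promoter (reads per CG divided by the library mean, linear axis) of the 10 germline genes in each labeled library, with 1 point per library, a black line at the mean of each group and a thick colored line at the median of other promoters with equal CG number at 500 ng and in uTOP-seq. All 500-ng points lie above the thick red line of their gene, and the uTOP-seq points lie below the thick blue line in every gene but Stra8.

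Because promoters differ in CG number, each promoter was ranked among all other protein-coding promoters with the same number of CGs, of which there were 136 to 237. No promoter with 84 CGs exceeded Dazl in 5hmC among 154, and none with 72 CGs exceeded Sycp1 among 174. A single promoter of 149 exceeded Ddx4, 2 of 170 exceeded Sycp3, 2 of 178 exceeded Tdrd1, and 3 exceeded each of Mael, Stk31 and Hormad1, among 209, 197 and 170. Stra8 was exceeded by 17 of 237 and Tex101 by 18 of 136. The median percentile of the set was 98.7 at 500 ng, with 9 of 10 genes above the 90th, and the medians at 50 ng and 5 ng were 98.8 and 98.9.

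In uCG coverage the order was turned around for 9 of the 10 genes. Dazl ranked at percentile 1.95 with 151 of 154 promoters above it, Ddx4 at 4.70, and Stk31, Sycp1, Mael, Hormad1, Tdrd1 and Tex101 between 12.2 and 15.4. Sycp3 lay at 27.6 and Stra8 at 98.3, and the median of the set was 12.9. The spread between replicates was wide in places: Mael ranked between 7.89 and 32.1 in single uTOP-seq libraries. These ranks are descriptions of single loci and carry no test.

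**Figure D2:**
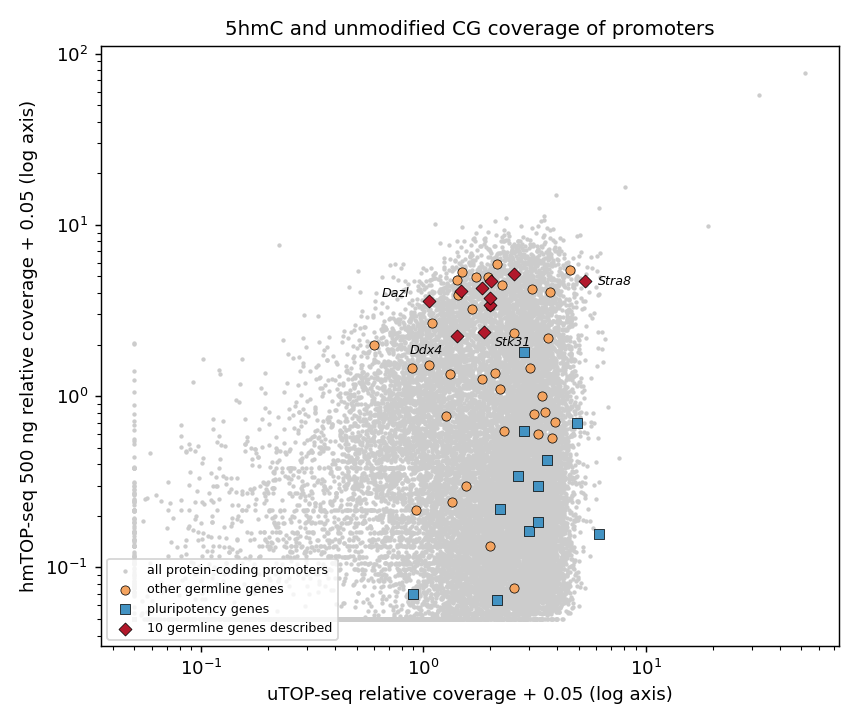
Relative coverage of 5hmC at 500 ng against that of uCG for each protein-coding promoter (mean over replicates, 0.05 added, both axes logarithmic), with the 10 germline genes as red diamonds, 36 other germline genes as orange circles and 12 pluripotency genes as blue squares. The red diamonds lie in the upper part of the cloud, Dazl at the left with a uCG value of 1.01 and Stra8 at the right with 5.27.

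To compare both marks in 1 test, promoter reads of the 500-ng libraries were set against those of uTOP-seq across all promoters (edgeR quasi-likelihood test, Benjamini-Hochberg adjustment, with a call at an adjusted p below 0.05 and at least 1 on the log2 scale). All 10 genes were called higher in 5hmC, where 31.7% of the 19868 promoters tested were called higher and 38.3% lower. The log2 fold changes were 2.04 to 4.06 with a median of 3.21, against a median of −0.28 over all promoters. These folds are relative to the typical promoter, because the normalization sets the bulk of promoters near 0. Scaling by library totals alone moved the median of all promoters to −2.49 and the share of calls that were higher from 45.3% to 10.3%. Of the 19868 promoters tested, 7.51% were then called higher and 65.7% lower. Of the 10 genes, 5 were called higher (Dazl, Sycp1, Sycp3, Hormad1 and Tex101). Another 4 kept a positive fold change below the threshold (0.69 for Ddx4, 0.76 for Mael, 0.93 for Tdrd1 and 0.35 for Stk31), and Stra8 turned to −0.19.

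Dazl and Ddx4 encode RNA-binding proteins of early germ cells, DAZL a regulator of translation and DDX4 (VASA) a helicase. The Dazl promoter, at chr17:50293136-50294636 with 84 CGs, held 452 and 449 reads from 500 ng, 312 and 253 from 50 ng, 95 and 205 from 5 ng, and 115, 71 and 96 in uTOP-seq. Its relative coverage was 3.56 ± 0.0289 (SD, n = 2) in 5hmC and 1.01 ± 0.216 (SD, n = 3) in uCG, and the log2 fold change of 4.06 (SE 0.14, edgeR adjusted p = 2.95e-37) was the highest of the set, rank 344 of 19868. The uCG value of Dazl was the lowest of the 10 genes. The Ddx4 promoter (chr13:112651801-112653301, 85 CGs) held 316 and 247 reads from 500 ng, 230 and 198 from 50 ng, 140 and 60 from 5 ng, and 151, 129 and 108 in uTOP-seq. Its 5hmC was the lowest of the set per CG, at 2.19 ± 0.352 (SD, n = 2), and the log2 fold change was 2.92 (SE 0.14, edgeR adjusted p = 5.37e-29).

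The low value of Ddx4 came from the center of its promoter. Relative 5hmC coverage was 5.29 from −500 to −251 bases and 5.13 from 250 to 499 bases downstream, but 1.81 in the 250 bases upstream of the TSS and 0.397 in the 250 bases downstream. Of its 85 CGs, 59 lay within 250 bases of the TSS, and these 69.4% of the CGs held 38.4% of the 5hmC reads and 69.1% of the uCG reads. In Dazl the order was the opposite: the 54.8% of CGs within 250 bases of the TSS held 77.7% of the 5hmC reads.

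Sycp1, Sycp3 and Hormad1 encode proteins of meiotic chromosomes. SYCP1 forms the transverse filaments of the synaptonemal complex, SYCP3 its lateral elements, and HORMAD1 sits on unsynapsed axes. The Sycp1 promoter (chr3:102935600-102937100, 72 CGs) held 464 and 455 reads from 500 ng, 304 and 234 from 50 ng, 293 and 130 from 5 ng, and 168, 144 and 120 in uTOP-seq, with a log2 fold change of 3.47 (SE 0.12, edgeR adjusted p = 2.51e-36). The Sycp3 promoter (chr10:88458569-88460069, 50 CGs) held 405 and 363 reads from 500 ng, 327 and 336 from 50 ng, 291 and 159 from 5 ng, and 171, 124 and 126 in uTOP-seq, with a log2 fold change of 3.25 (SE 0.13, edgeR adjusted p = 1.58e-33). Its relative 5hmC coverage of 5.09 ± 0.328 (SD, n = 2) was the highest of the 10, and its CGs also lie inside the span of Chpt1, a gene on the other strand. The Hormad1 promoter (chr3:95558677-95560177, 50 CGs) held 379 and 321 reads from 500 ng, 210 and 254 from 50 ng, 147 and 72 from 5 ng, and 120, 99 and 107 in uTOP-seq, with a log2 fold change of 3.48 (SE 0.14, edgeR adjusted p = 1.95e-33).

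In each of these 3 genes both 500-ng libraries held more reads than any uTOP-seq library. These were raw reads at unlike library totals, and the share of all promoters that separate this way is not given here. With an equal CG number of 50, Sycp3 and Hormad1 could be set side by side: 5hmC coverage was 5.09 ± 0.328 and 4.64 ± 0.484 (SD, n = 2), a difference within the range of the replicates, and uCG coverage was 2.51 ± 0.196 and 1.97 ± 0.262 (SD, n = 3). The CG with the most reads in Hormad1 lay at −450 bases from the TSS, with 67 and 34 reads, and held 14.4% of the promoter reads. In Sycp1 it lay 432 bases downstream in an intron, with 63 and 52 reads, and in Sycp3 284 bases downstream in an intron, with 29 and 20 reads.

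Mael and Tdrd1 act in the piRNA pathway, which silences transposons in germ cells, TDRD1 as a Tudor-domain partner of PIWI proteins. The Mael promoter (chr1:166238244-166239744, 64 CGs) held 351 and 297 reads from 500 ng, 311 and 160 from 50 ng, 113 and 148 from 5 ng, and 217, 114 and 99 in uTOP-seq. The Tdrd1 promoter (chr19:56825209-56826709, 58 CGs) held 351 and 299 reads from 500 ng, 209 and 209 from 50 ng, 130 and 134 from 5 ng, and 161, 114 and 104 in uTOP-seq. Both were higher in 5hmC, with log2 fold changes of 2.99 (SE 0.14, edgeR adjusted p = 4.09e-29) for Mael and 3.17 (SE 0.14, edgeR adjusted p = 1.24e-31) for Tdrd1. The 50-ng libraries of Tdrd1 held equal reads, whereas those of Mael lay far apart.

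Stk31 encodes a germ cell protein with Tudor and kinase-like domains, and Tex101 a glycoprotein on the surface of germ cells that sperm need for fertilization. The Stk31 promoter (chr6:49394604-49396104, 61 CGs) held 196 and 233 reads from 500 ng, 170 and 148 from 50 ng, 60 and 183 from 5 ng, and 154, 124 and 98 in uTOP-seq, with a log2 fold change of 2.58 (SE 0.15, edgeR adjusted p = 6.92e-25). Its 5hmC reads were few per CG, at 2.33 ± 0.314 (SD, n = 2) in relative coverage, and 13.8% of them lay at 1 CG at −266 bases from the TSS. The Tex101 promoter (chr7:24671550-24673050, 37 CGs), around the TSS of its principal transcript inside the annotated gene span, held 250 and 203 reads from 500 ng, 113 and 153 from 50 ng, 149 and 5 from 5 ng, and 75, 58 and 45 in uTOP-seq, with a log2 fold change of 3.73 (SE 0.16, edgeR adjusted p = 3.35e-31). Within 250 bases of the TSS lay 91.2% of its 500-ng promoter reads, the highest such share of the set. The same stretch held 70.3% of its CGs and 82.6% of its uCG reads. A single CG at −193 bases held 19.6% of the 500-ng promoter reads, with 42 and 47 reads.

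Stra8 encodes the factor through which retinoic acid starts meiosis, and its values differed from those of the other 9 genes. The promoter at the annotated TSS (chr6:34919163-34920663) had 21 CGs, the fewest of the set, and held 137 and 157 reads from 500 ng, 126 and 151 from 50 ng, 164 and 85 from 5 ng, and 141, 154 and 79 in uTOP-seq. Both marks were high, with a relative coverage of 4.64 ± 0.506 (SD, n = 2) in 5hmC and 5.27 ± 1.41 (SD, n = 3) in uCG, and the log2 fold change of 2.04 (SE 0.17, edgeR adjusted p = 2.93e-17) was the lowest of the set. RefSeq places the TSS 785 bases downstream, in a window with 42 CGs. In that window the relative 5hmC coverage was 4.53 and that of uCG 2.91, at percentiles 94.4 and 45.2 among 250 promoters with 41 to 43 CGs, so the uCG rank of Stra8 depended on which TSS was used.

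Around the TSS, the 10 genes formed a plateau of 5hmC where other promoters had a trough. Among the 10707 other promoters with 21 to 85 CGs, the median relative coverage fell from 0.666 between −750 and −501 bases to 0.0970 in the first 250 bases downstream of the TSS. In the germline genes the medians of the 5 bins of 250 bases from 500 bases upstream to 749 bases downstream were 3.67 to 4.26, and on either side they were 0.848 and 0.230. The uCG medians over those bins were 0.938 to 2.09 in the germline genes and 2.35 to 2.80 in the other promoters.

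**Figure D3:**
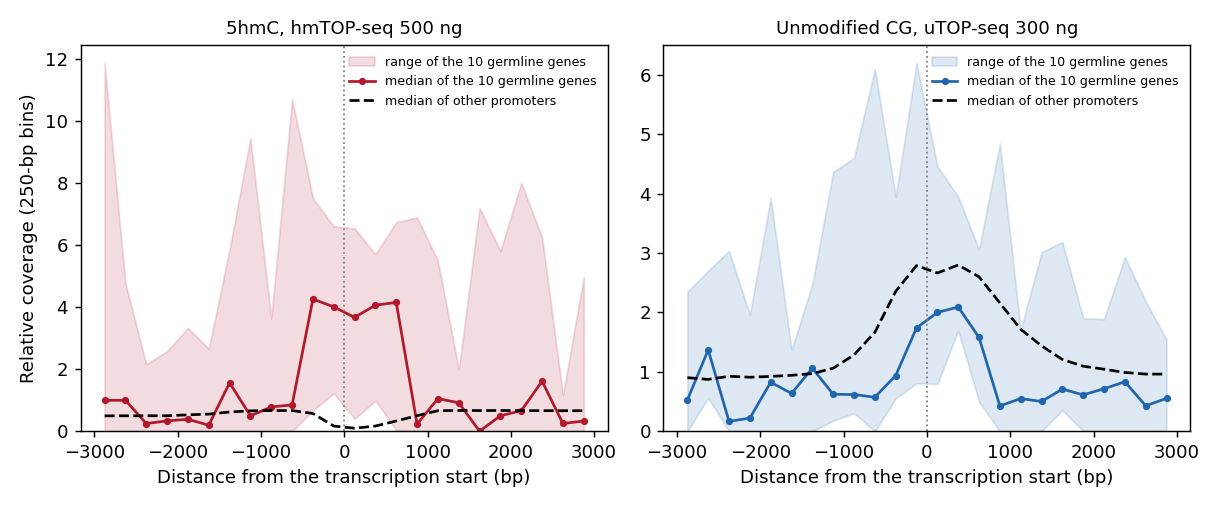
Relative coverage in 250-base bins against distance from the TSS for 5hmC at 500 ng (left) and uCG (right), with the median (line) and the lowest to highest value (shading) of the 10 germline genes and the median of 10707 other promoters with 21 to 85 CGs (dashed). The germline medians form a plateau at 3.67 to 4.26 in 5hmC, where the dashed line dips to 0.0970.

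The edges of the plateau differed between genes. In Dazl it ended sharply: relative 5hmC coverage was 4.74 over 13 CGs from 250 to 499 bases downstream and 0.0388 over 34 CGs from 500 to 749 bases, with 0.126 over the next 21 CGs. uCG coverage in the same 3 bins was 1.69, 0.495 and 0.400, so the 55 CGs of the last 2 bins were low in both readouts. Dazl also had a separate peak of 5.87 over 10 CGs from −1500 to −1251 bases. In Sycp1 2 upstream bins were higher still at 500 ng, at 9.44 over 2 CGs in the 250 bases from −1250 and 11.9 over 4 CGs from −3000 to −2751 bases. At 50 ng the former bin had 0.958 and the latter 17.5, and at 5 ng 5.38 and 29.4. In Stra8 5hmC fell to 0.985 at the single CG from 250 to 499 bases downstream, rose to 6.88 from 750 to 999 bases, was 1.13 over 20 CGs from 1250 to 1499 bases, and was 5.81 to 7.99 in the bins from 1500 to 2249 bases. In Tex101 it was 0.912 over 4 CGs from 500 to 749 bases downstream and 0.109 over 3 CGs in the next bin, but 3.59 over 6 CGs from 2250 to 2499 bases.

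**Figure D4:**
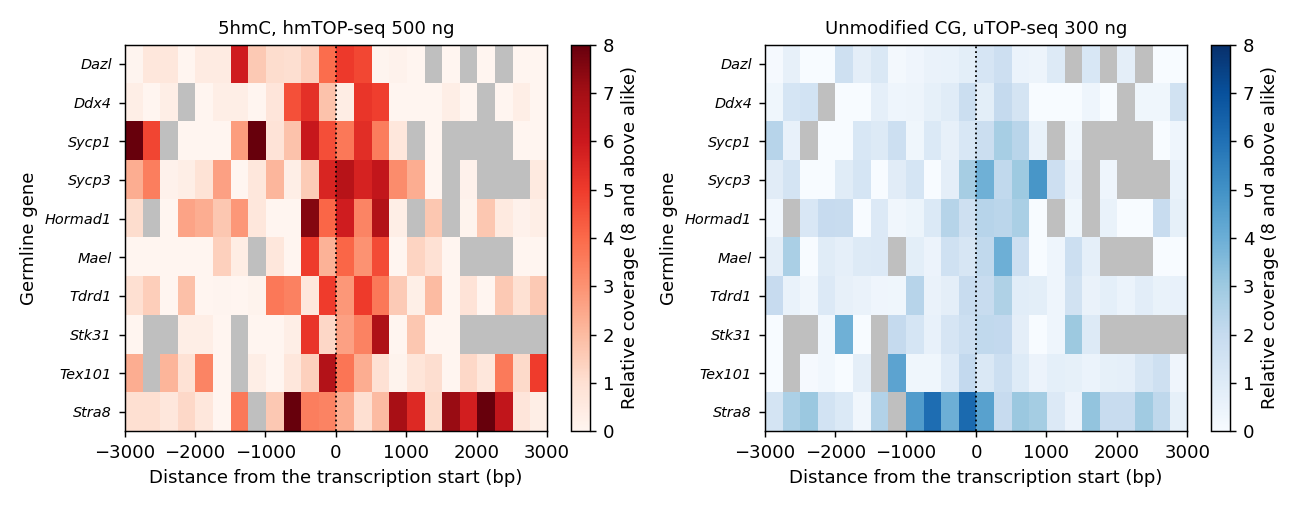
Relative coverage by gene (rows) in 250-base bins from 3000 bases upstream to 3000 bases downstream of the TSS, for 5hmC at 500 ng (left) and uCG (right), with bins without a CG in gray. 5hmC is above 1 in every bin from 500 bases upstream to 499 bases downstream except for 1 bin each in Ddx4, Tdrd1 and Stra8, with further high bins upstream in Dazl (5.87) and Sycp1 (9.44 and 11.9) and inside the gene in Stra8. The Sycp1 bin at 9.44 holds 2 CGs and had 0.958 at 50 ng.

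Gene bodies did not share the promoter pattern. In the same comparison over gene bodies (edgeR quasi-likelihood test, Benjamini-Hochberg adjustment), none of the 10 genes was called higher and 1, Dazl, was called lower, where 5.95% of 20415 gene bodies tested were called higher and 17.1% lower. At an unadjusted p below 0.05, 5 of the 10 differed, beside 15502 of the 20415 gene bodies tested. DESeq2 also called none of the 10 higher, beside 1218 of 20415. The median log2 fold change was −0.08, against −0.04 over all gene bodies. Promoters and bodies were normalized separately, so their fold changes are not on a common scale. Scaling by library totals alone left the body median of the 10 genes at −0.07, while their promoter median fell to 0.98. Stra8 (0.83), Tdrd1 (0.73) and Tex101 (0.66) had adjusted p-values of 7.20e-15, 3.49e-13 and 0.00674 and stayed below the fold threshold, and Ddx4 had −0.40 (edgeR adjusted p = 0.000730). With the TSS of Tex101 at the end of its gene span, its body was called higher at 1.23. Whether the difference between promoter and body differed between genes was not tested.

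The body of Dazl, 102 CGs, held 9 and 8 reads from 500 ng, 16 and 8 from 50 ng, 3 and 2 from 5 ng, and 99, 55 and 37 in uTOP-seq. It was lower in 5hmC than in uCG by 3.30 on the log2 scale (SE 0.39, edgeR adjusted p = 1.35e-10 for a log2 fold change of −3.30). Per CG, the Dazl promoter had 61.0 to 68.2 times the 5hmC reads of the body, and 79.6% of the 5hmC reads of the locus lay in the promoter, which held 40.4% of its CGs. For uCG the same ratio was 1.41 to 3.15.

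In the other genes the promoter exceeded the body less. The ratio of 5hmC reads per CG was 9.73 to 10.4 in Sycp1, 5.17 to 5.90 in Mael and 4.35 to 4.67 in Stk31, and the lowest was that of Stra8, at 1.48 to 1.72. The ratio for uCG was 3.84 to 4.22 in Sycp1, 2.06 to 3.27 in Mael and 2.73 to 3.63 in Stk31, and in Tdrd1 it was close to that for 5hmC, at 2.22 to 2.29 against 2.49 to 2.66. In Stra8 the order was turned around, with 2.52 to 4.47 for uCG. Stra8 had the highest body coverage, with 1286 and 1269 reads over 292 CGs at 500 ng and a relative coverage of 2.90 ± 0.00991 (SD, n = 2), followed by Sycp3 at 1.66 and Tdrd1 at 1.44. Among gene bodies of equal CG number, ranks in 5hmC ran from percentile 5.49 for Dazl to 85.0 for Stra8, with a median of 34.7, and in uCG from 1.90 for Sycp1 to 67.1 for Sycp3, with a median of 23.3.

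**Figure D5:**
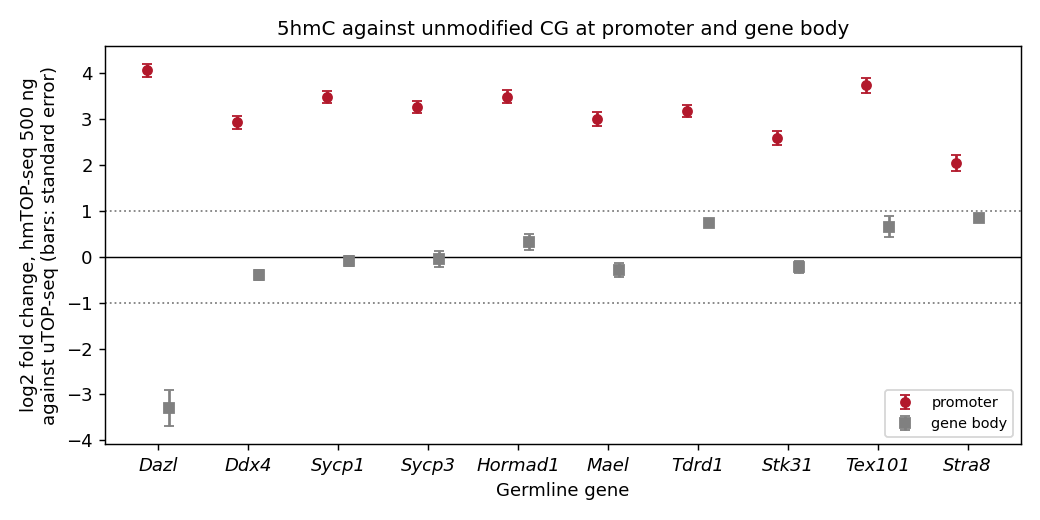
Log2 fold change of hmTOP-seq 500 ng against uTOP-seq for the promoter (red circles) and the gene body (gray squares) of each gene, with standard errors and dotted lines at 1 and −1. Promoter values lie between 2.04 and 4.06, and body values between −0.40 and 0.83 except for Dazl at −3.30. Promoters and bodies were normalized separately, so their values are not on a common scale. Scaling by library totals alone lowers the median of the 10 genes to 0.98 at promoters, against −0.07 in bodies. Stra8 then stands at −0.19 in the promoter and 0.85 in the body.

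At single CGs, 380 of the 582 promoter CGs (65.3%) had a read in both 500-ng libraries, compared with 12.5% of the 1094201 CGs in all promoters. At 50 ng the shares were 37.6% and 5.56%, and at 5 ng 8.25% and 0.795%. In all 3 uTOP-seq libraries 31.1% of the CGs of the set and 35.6% of all promoter CGs were read. By gene, the share read in both 500-ng libraries ran from 41.2% in Ddx4 and 49.2% in Stk31 to 84.0% in Sycp3 and 85.7% in Stra8. Reads had no molecular identifiers, so reads at 1 CG need not be separate molecules.

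The replicates ranked these CGs alike at 500 ng and not at 5 ng. Over the 582 CGs, which share libraries and depth, Pearson's r between the replicates was 0.79 at 500 ng, 0.44 at 50 ng, 0.07 at 5 ng and 0.45 between the first 2 uTOP-seq libraries. The CG of Dazl with the most 5hmC reads, in an intron 250 bases downstream of the TSS, had 47 and 35 reads from 500 ng, 37 and 24 from 50 ng, 0 and 55 from 5 ng, and 2, 1 and 0 in uTOP-seq. Another CG in Tdrd1, at −166 bases, had 18 and 16 reads at 500 ng and none in any uTOP-seq library. In Dazl 23 CGs had a 5hmC read and no uCG read, against 3 the other way round, whereas in Hormad1 the numbers were 2 and 5. Spearman's rho between 5hmC and uCG reads over the CGs of a promoter was 0.27 to 0.57.

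Letters that the silencing complex is known to read were looked for in the RefSeq promoter windows, 250 bases before to 50 bases after a start, on both strands. CACGTG, the E-box of MGA and MAX, was in the windows of 7 of the 10 genes (Ddx4, Sycp3, Sycp1, Mael, Tdrd1, Stk31 and Hormad1) and of 9.22% of 16433 genes. TCCCGC, the core of the E2F6 motif, was in those of 5 genes and 29.4% of all, and the same 5 (Ddx4, Sycp3, Sycp1, Mael and Hormad1) held both in 1 window, against 3.21% of all. The promoters held 11 CGs at the center of a CACGTG, of which 6 were read in both 500-ng libraries and 3 in all uTOP-seq libraries. Mean reads per CG were 5.68 at these sites and 5.43 at the other 571 CGs at 500 ng. In Sycp1 the site at −284 bases had 18 and 19 reads, and in Hormad1 the site at −18 bases, seen in lower case in the stretch above, had none at 500 ng.

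Other germline genes were described from a list of 36. In 5hmC against uCG at the promoter, 24 were called higher and 2 lower, beside 31.7% and 38.3% of all promoters tested. With 28 above 0, their median log2 fold change was 1.87, against −0.28 over all promoters. Scaling by library totals alone called 9 higher and 13 lower, beside 7.51% and 65.7% of all promoters. Their median was then −0.36, against −2.49 over all promoters. The highest were Tdrd9 at 4.13, Taf7l at 4.08 and Asz1 at 4.02, which act in the piRNA pathway (Tdrd9 and Asz1) and in transcription in spermatocytes (Taf7l). Tdrd9, the first of them, held 306 and 251 reads at 500 ng and 57, 38 and 69 in uTOP-seq. Under library totals these 3 stayed called higher, at 1.90, 1.85 and 1.79. The 2 called lower were Ddx25 at −2.32 and Hsf2bp at −4.38, and Hsf2bp held 0 and 7 reads at 500 ng and 300, 245 and 226 in uTOP-seq. The list was thus not uniform, and it overlapped with the set. Its relative 5hmC coverage ran from 0.0255 to 5.90, beside 2.19 to 5.09 in the 10 genes. Its median of 1.41 lay below the lowest of the 10 genes.

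Among 17 genes of the silencing and oxidation machinery, 2 were called higher (Tet1 at 1.70 and Uhrf1 at 1.18) and 10 lower, and those called lower included Dnmt1 at −1.93, Max at −2.43 and Ehmt2 at −3.84. Of 12 pluripotency genes 1 was called higher (Esrrb at 1.56) and 8 lower. Among all promoters tested, 31.7% were called higher and 38.3% lower. Of 16 housekeeping genes 10 were called lower and 1 higher, Hprt, which held 14 and 15 reads at 500 ng and 0 in all uTOP-seq libraries over 80 CGs. Scaled by library totals alone, by which 7.51% of all promoters were called higher and 65.7% lower, 0 machinery genes were called higher and 16 lower, 0 pluripotency genes higher and 11 lower, and 1 housekeeping gene higher and 15 lower. Tet1 then stood at −0.53, Esrrb at −0.67 and Uhrf1 at −1.05, the last called lower. E14TG2a is known as an HPRT-deficient line, and the few reads at Hprt were not analysed further.

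By the distance of log2 relative coverage over the 500-ng, 50-ng and uTOP-seq libraries, 7 in all, the promoters nearest to the median of the set were those of Krt7 (0.227), Sh2d7 (0.261), Col24a1 (0.281), 1110002E22Rik (0.309) and Sult2b1 (0.347), among 10707 with 21 to 85 CGs. Of the set itself, Sycp1 (0.264) and Tdrd1 (0.267) had 2 promoters nearer than they were, and Stra8 (2.89) had 2514. High 5hmC with a moderate uCG level was thus also found at promoters outside the set.

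The input comparisons asked whether less DNA gave the same coverage. Over gene span plus 2 kb upstream, none of the 10 genes was called between 50 and 500 ng, where 0% of 20603 genes were called higher and 0% lower (edgeR quasi-likelihood test, Benjamini-Hochberg adjustment). At an unadjusted p below 0.05 there were 2284 genes, Stk31 among them as the only gene of the set, and DESeq2 called 0. The log2 fold changes of the 10 genes were −0.12 to 0.32 with standard errors of 0.08 to 0.16. Between 5 and 500 ng none of the 10 was called either, with 0% called higher and 0% lower of 20409, 2575 genes at an unadjusted p below 0.05 (none of the 10) and 263 called by DESeq2. The log2 fold changes were −0.30 for Dazl to 0.47 for Stk31 with standard errors of 0.12 to 0.67.

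The widest error was that of Tex101, whose 5-ng libraries held 82 to 335 reads over gene span plus 2 kb upstream. In its promoter they held 149 and 5 reads. Its log2 fold change over the span at 5 ng was 0.01 (SE 0.67). Without the first 5-ng library it was −1.36, so the value depended on single libraries. A relative promoter coverage of 2.98 ± 3.95 (SD, n = 2) left the Tex101 promoter undetermined at 5 ng. The 5-ng promoter values of Stk31 (60 and 183 reads), Sycp1 (293 and 130) and Ddx4 (140 and 60) also lay farther apart than those at 500 ng.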

How the data were processed

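hmTOP-seq and uTOP-seq libraries of E14TG2a DNA were compared by input and assay, with groups and replicate numbers taken from the sample titles. The authors mapped reads to mm10, removed duplicates that shared a start and a read length, and assigned each read to a CG. Raw read counts for every CG and library, without any normalization, were deposited. The hmTOP-seq counts cover 21353092 CGs with strands merged, and the uTOP-seq counts list 17155987 strand-specific entries, which were summed by CG. Every entry was checked to lie on a CG of GRCm38.

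Counts were summed over promoters, gene bodies and gene spans plus 2 kb of GENCODE release 21 genes, with the TSS of the principal transcript. Features with at least 10 reads in the libraries compared were tested with edgeR 4.0.16 (TMM normalization, quasi-likelihood F test, Benjamini-Hochberg adjustment over all features tested), and with DESeq2 1.42.0 as an alternative. A call needed an adjusted p below 0.05 and a log2 fold change of at least 1 in size. Relative coverage and percentiles were computed with Python 3.11.15. Percentiles used promoters of equal CG number, with the range widened until 100 promoters were found, and likeness used log2(relative coverage + 0.1). The region sums, the percentiles and the edgeR fit were tested on simulated data.

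The genes named were the 10 genes of the set, the 3 highest and up to 3 lowest called of the other germline genes, and 5 promoters by likeness. Tet1, Uhrf1, Esrrb, Hprt, Dnmt1, Max and Ehmt2 were chosen after their values were seen. The genes and lists were chosen with earlier results of these data known. Totals of reads counted at CGs, 3409 to 32502791 per library, set the precision. Alternatives were other normalizations, filters, promoter bounds and TSS, the replicate block and each library left out.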

Additional observations from a re-analysis of the deposited data

How the results depend on the processing

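The call of all 10 promoters as higher in 5hmC held with DESeq2, without a filter and with a minimum of 50 reads. It also held with narrower and wider promoters and with the TSS at the end of the gene span. The RefSeq TSS (chosen after seeing the data) and fits without any single uTOP-seq library gave it too (10 of 10 each). Without a 500-ng library the median log2 fold change of the 10 genes was 3.11 or 3.29. All promoters called higher numbered 6483 of 19868 with DESeq2 and 6255 of 21755 without a filter. They were 5977 of 17730 at 50 reads, 6052 of 19397 in narrower and 6154 of 20447 in wider promoters. At the span end they were 6271 of 19871, and with the RefSeq TSS 4684 of 15197. Scaling by library totals alone called 5 of the 10 higher, beside 7.51% of all promoters tested, and turned Stra8 to −0.19. That scaling leaves out the trimmed mean that sets the median promoter near 0. In gene bodies 1 gene, Tex101, was called higher with the TSS at the end of the gene span. The log2 fold change of the Hormad1 body was −0.032 to 0.61 without single libraries and that of Sycp3 −0.15 to 0.10. The median percentile of promoter 5hmC was 99.5 in promoters of 0.5 kb on both sides, 96.7 in promoters from 2 kb upstream, and 98.7 to 98.9 without a replicate. That of uCG was 17.6 in promoters from 2 kb upstream and 13.9 to 14.5 without a replicate.

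Replicate numbers did not pair the libraries: deviations of same-numbered libraries correlated at −0.01 to 0.03. With the replicate number as a block, 3 genes were called between 5 and 500 ng in place of 0, none of them in the set, the value of Sycp3 in the body comparison was 0.10 and that of Tex101 at 5 ng −0.30. The block changed no other call of the set.

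Input comparisons depended on single libraries. Leaving out a library gave 0 to 333 calls at 50 ng and 0 to 3179 at 5 ng. The high numbers came where a single 50-ng or 5-ng library was left, which the fit assumes to vary like the other group. Calls from such fits were therefore not read for genes of the set, for which only log2 fold changes are given. DESeq2 called 263 genes at 5 ng. The ranges without single libraries at 50 ng were −0.070 to 0.50 for Mael, −0.11 to 0.10 for Hormad1, −0.28 to 0.079 for Tex101, −0.20 to 0.050 for Sycp1 and −0.15 to 0.041 for Tdrd1. At 5 ng they were −1.36 to 0.70 for Tex101, −0.078 to 0.15 for Tdrd1, −0.031 to 0.44 for Ddx4, −0.38 to 0.44 for Sycp3, −0.068 to 0.30 for Hormad1, −0.43 to 0.31 for Sycp1, −0.42 to 0.61 for Mael and −0.43 to 0.11 for Stra8. Library totals alone gave −0.031 for Tex101 and −0.0045 for Tdrd1 at 5 ng. The cause of these shifts was not tested. Input and read number were both lowest at 5 ng and cannot be told apart.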
